A study of Mus musculus with 14 samples.

Results

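The genes described here are the mouse collagen chains other than Col4a1 and Col4a2. Every row of the deposited count tables whose Ensembl ID maps to a protein-coding symbol made of Col, a number, a and a number was taken, without those 2 genes. This gave 42 genes of the 20214 protein-coding genes and the 37991 IDs in each table. They were measured as poly(A)-selected RNA in J1 mouse embryonic stem cells (strain 129S4/SvJae), in 14 libraries that form 7 groups of 2. The 2 deposited count tables are called experiment 1 and experiment 2 here, names that the sample titles do not give. Experiment 1 held cells labelled Dnmt-TKO (called TKO here) with PRT4165, TKO cells with the vehicle DMSO, wild-type cells with PRT4165 and wild-type cells with DMSO. Experiment 2 held untreated cells labelled Tet1-KO Dnmt-TKO (called Tet1-KO TKO), untreated TKO cells and untreated wild-type cells. Dnmt-TKO is the usual name for cells in which Dnmt1, Dnmt3a and Dnmt3b, the genes of the DNA methyltransferases, are knocked out, Tet1 encodes an enzyme that oxidises methylated cytosine, and PRT4165 is an inhibitor of the polycomb complex PRC1. For PRT4165, dose and duration are not given in the labels. The labels do not say how many clones each genotype came from, so genotype and cell line cannot be told apart. Replicates are numbered but not described as separate cultures, and the p-values here therefore reflect the spread between these libraries, which may be technical.

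Collagens are extracellular proteins in which chains wind into a helix, either of identical chains or of the products of different genes. Fibrillar collagens build the fibrils of bone, skin and cartilage, fibril-associated collagens coat them, network-forming collagens build basement membranes, and transmembrane collagens stay at the cell surface. A heterotrimer needs all of its partner chains, and each chain is hydroxylated, folded by dedicated chaperones, exported, trimmed and crosslinked before it works. Embryonic stem cells make a basement membrane, while most fibrillar collagens are known as products of fibroblasts, osteoblasts and chondrocytes.

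Total counts per library ran between 25588815 and 37399837 for experiment 1, and between 23354015 and 41844823 for experiment 2. All 10 embryonic stem cell markers listed, among them Pou5f1 and Nanog, averaged at least 1 CPM (the count scaled to the library's TMM-adjusted total) in each of the 7 groups. Dnmt1 transcripts stood at 116 to 158 CPM in the TKO and Tet1-KO TKO libraries, against 305 to 434 CPM in the wild-type libraries, and Dnmt3b at 36.4 to 51.3 against 107 to 197 CPM. Tet1 stood at 134 and 201 CPM in Tet1-KO TKO cells, against 791 and 742 CPM in TKO cells of the same experiment. In experiment 2 the replicates stood further apart than in experiment 1, with a biological coefficient of variation of 10.5% against 3.73%. A list of 14 endoderm markers summed to 1691 and 3254 CPM in the Tet1-KO TKO replicates and to 1205 and 1647 CPM in the TKO replicates. Each collagen gene call of experiment 2 is therefore also given without a library where that ends the call. Calls of marker genes were not followed in this way.

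Col18a1 made up most of the counts on these 42 genes, which leave out Col4a1 and Col4a2. Its product is the core of a basement membrane proteoglycan from which endostatin is cut. It held 72.0% to 77.5% of all counts on the 42 genes in the TKO libraries of experiment 1, 85.1% to 87.7% in the wild-type libraries of that experiment, and 80.1% to 84.2% in the libraries of experiment 2. Per kilobase of exon it averaged 66.4 CPM in TKO vehicle cells and 80.8 CPM in wild-type vehicle cells, and in experiment 2 it averaged 84.5 CPM in Tet1-KO TKO, 81.9 CPM in TKO and 63.3 CPM in wild-type cells. No other member passed 10.6 CPM per kilobase in any group. Col9a2, a chain of the collagen that coats cartilage fibrils, came next at 10.6 CPM per kilobase in TKO vehicle cells and 3.35 in wild-type vehicle cells. Untreated wild-type cells were the exception, with Col13a1 at 5.06 CPM per kilobase above Col9a2 at 4.25, although the replicates of Col13a1 there, 19.1 and 27.5 CPM, were far apart.

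After Col18a1 and Col9a2 the order depended on genotype. In TKO vehicle cells Col5a1 followed with 2.95, Col5a3 with 1.58, Col2a1 with 1.14 and Col13a1 with 0.744 CPM per kilobase. In wild-type vehicle cells the transmembrane collagen gene Col13a1 followed with 3.31, Col5a3 with 2.24, Col5a1 with 1.77 and Col2a1 with 0.326 CPM per kilobase. There the replicates of Col9a2 and Col13a1 overlapped on this scale. Most members were low. Between 15 and 26 of the 42 genes reached 1 CPM in a library, and 5 to 9 reached 5 CPM. Without Col18a1 the members summed to 136 and 136 CPM in TKO vehicle cells, against 81.3 and 80.8 CPM in wild-type vehicle cells. In experiment 2 that sum was 109 and 125 CPM in Tet1-KO TKO, 117 and 127 CPM in TKO and 104 and 112 CPM in wild-type cells.

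**Figure D1:**
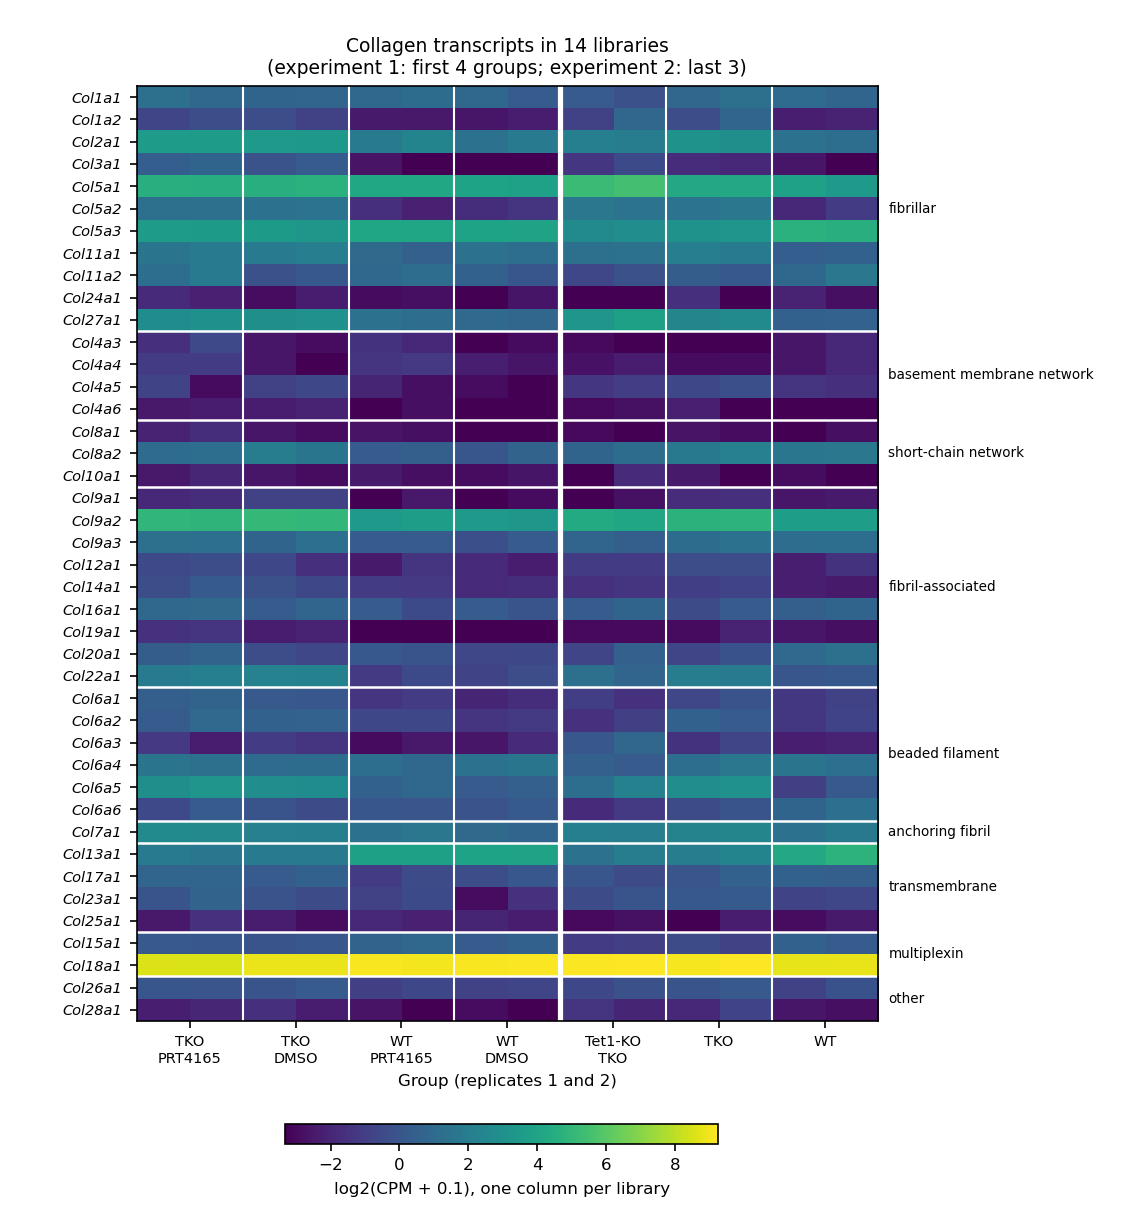
Levels of the 42 collagen genes in 14 libraries, as log2(CPM + 0.1) on the colour scale, with genes in rows by structural class and libraries in columns by group. Col18a1 is bright in every column, and Col5a2, Col27a1, Col22a1 and Col6a5 are brighter in the TKO columns than in the wild-type columns of both experiments.

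RefSeq promoter sequences were available for 33 of the 42 genes on the build GRCm38.p6, which is not the mm9 build of the deposited tables. The windows of 250 bases before the gene start are shown for 5 members that the comparisons turn on, since DNA methyltransferases act on CG pairs. Capitals mark each CG. Col5a1 (chr2:27886175-27886424, plus strand), Col27a1 (chr4:63215162-63215411, plus strand) and Col3a1 (chr1:45311288-45311537, plus strand) were higher in TKO vehicle cells. Col13a1 (chr10:61979109-61979358, minus strand) and Col5a3 (chr9:20815068-20815317, minus strand) were lower there. All 5 windows lie upstream of the annotated first exon and are written 5′ to 3′ on the gene's strand.
Col5a1: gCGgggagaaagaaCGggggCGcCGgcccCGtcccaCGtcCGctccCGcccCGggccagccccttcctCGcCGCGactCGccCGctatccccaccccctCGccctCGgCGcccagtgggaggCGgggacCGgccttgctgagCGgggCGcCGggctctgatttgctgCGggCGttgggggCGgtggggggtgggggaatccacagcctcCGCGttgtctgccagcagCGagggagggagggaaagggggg
Col27a1: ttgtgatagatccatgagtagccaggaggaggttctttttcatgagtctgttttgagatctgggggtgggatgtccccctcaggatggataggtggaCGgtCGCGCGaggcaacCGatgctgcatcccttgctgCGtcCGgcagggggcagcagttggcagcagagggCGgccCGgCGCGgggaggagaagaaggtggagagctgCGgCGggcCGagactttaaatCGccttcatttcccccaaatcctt
Col3a1: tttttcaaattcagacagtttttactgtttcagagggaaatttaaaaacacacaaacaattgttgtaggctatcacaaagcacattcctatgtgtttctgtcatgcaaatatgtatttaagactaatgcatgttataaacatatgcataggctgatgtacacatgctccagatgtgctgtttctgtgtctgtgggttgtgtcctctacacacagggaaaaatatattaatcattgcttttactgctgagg
Col13a1: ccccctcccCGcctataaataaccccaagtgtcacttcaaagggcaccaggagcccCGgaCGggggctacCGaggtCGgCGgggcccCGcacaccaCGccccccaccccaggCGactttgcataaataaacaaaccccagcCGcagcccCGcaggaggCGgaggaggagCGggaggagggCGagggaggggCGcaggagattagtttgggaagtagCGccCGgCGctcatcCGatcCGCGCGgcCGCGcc
Col5a3: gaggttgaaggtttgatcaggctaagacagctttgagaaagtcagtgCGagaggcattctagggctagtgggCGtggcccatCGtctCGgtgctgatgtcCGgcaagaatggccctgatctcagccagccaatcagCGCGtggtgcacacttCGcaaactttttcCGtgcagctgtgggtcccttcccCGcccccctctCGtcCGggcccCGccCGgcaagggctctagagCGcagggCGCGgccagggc
The Col5a1 window held 28 CG pairs, Col13a1 24, Col5a3 17, Col27a1 15 and Col3a1 0. For genes with more than 1 window, the next counts take the window with the most CG pairs. Under vehicle, 14 members called higher held 0 to 28 CG pairs with a median of 9.5. The 3 called lower held 12 to 24 with a median of 17, and Col18a1 among them had another window with 3. Over all 36 windows of members the median was 8.5 CG pairs, against 6 over the 32851 windows of all genes, and 47.2% against 37.8% held at least 10. Of 3 short motifs searched on both strands, the GC box GGGCGG, which itself holds a CG, was present in 58.3% of member windows, against 32.7% of all windows. The TATA box TATAAA was present in 13.9% against 12.4% and the E-box CACGTG in 0% against 6.0%. No CG methylation was measured, and a match or its absence says only which letters the window holds.

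The first comparison, TKO against wild-type cells under vehicle, asked what the loss of the methyltransferases goes with. In TKO cells 21 collagen genes rose and 3 fell, 10 were not called, and 8 were too low to test. Calls rest on an adjusted p under 0.05 from edgeR's quasi-likelihood test, with Benjamini-Hochberg adjustment over 16711 genes. Of all genes tested 34.8% were called higher and 34.2% lower, so that being called is common here. Of the 34 members tested 61.8% were called higher and 8.82% lower. A rise of more than 2-fold was called for 18 members, against 19.1% of all genes, and a fall of more than 2-fold for 1 member, against 6.43%. The median log2 change over the tested members was 1.25, against 0.01 over all genes. These shares are descriptions, because a member that is near 0 in wild-type cells passed the filter on low counts only if it was higher in another group. In RNA from whole cultures, more cells of one kind and more RNA per cell cannot be told apart.

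Among the 11 fibrillar collagen genes 7 rose, 1 fell, 2 were not called and Col24a1 was too low to test. Col2a1, the cartilage fibril chain, stood at 10.9 and 10.2 CPM in TKO cells, against 2.54 and 3.48 CPM in wild-type cells, a log2 change of 1.80 (SE 0.15, adjusted p = 1.18e-10). Col27a1, a fibrillar chain of developing cartilage, stood at 7.47 and 8.07 CPM in TKO cells, against 1.89 and 1.65 CPM in wild-type cells (2.14, SE 0.16, adjusted p = 1.61e-11). For both genes the TKO libraries lay above the wild-type libraries by several times the distance between replicates.

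The type V chains, which set the width of fibrils, moved apart. Col5a2 stood at 2.56 and 2.71 CPM in TKO cells, against 0.214 and 0.280 CPM in wild-type cells, a log2 change of 3.38 (SE 0.32, adjusted p = 1.11e-09). Col5a1, which shares exon sequence with genes on the other strand, stood at 24.2 and 25.9 CPM in TKO cells, against 15.5 and 14.5 CPM in wild-type cells (0.74, SE 0.08, adjusted p = 5.39e-09). Col5a3, the other chain of this type, fell to 11.4 and 10.1 CPM in TKO cells, against 15.4 and 15.1 CPM in wild-type cells (-0.51, SE 0.09, adjusted p = 3.16e-05). Thus 2 of the partner chains rose and the other fell, each without overlap between the groups.

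Of the type I pair, Col1a2 rose and Col1a1 was not called. Col1a2 stood at 0.673 and 0.435 CPM in TKO cells, against 0.0714 and 0.0933 CPM in wild-type cells (2.68, SE 0.61, adjusted p = 0.000415). Col1a1 stood at 1.55 and 1.61 CPM in TKO cells and 1.75 and 1.18 CPM in wild-type cells (0.12, SE 0.26, adjusted p = 0.692), so its groups overlapped. Col3a1, the chain of reticular fibres, had 25 and 35 counts in TKO cells and 0 in both wild-type libraries. With a floor of 3 counts over the wild-type group it was at least 20.2-fold higher in TKO cells (adjusted p = 2.14e-07). Of the type XI chains, which join the Col2a1 product in cartilage fibrils, Col11a1 stood at 3.57 and 4.12 CPM in TKO cells, against 2.46 and 2.21 CPM in wild-type cells (0.72, SE 0.19, adjusted p = 0.00193). Col11a2 stood at 0.774 and 1.00 CPM in TKO cells and 1.39 and 0.933 CPM in wild-type cells and was not called (adjusted p = 0.319).

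Of 9 fibril-associated collagen genes 8 were tested and 6 rose, while Col16a1 (0.47, SE 0.30, adjusted p = 0.163) and Col20a1 (0.14, SE 0.37, adjusted p = 0.754) were not called. Col9a2 stood at 33.2 and 32.1 CPM in TKO cells, against 10.6 and 10.1 CPM in wild-type cells (1.66, SE 0.08, adjusted p = 8.64e-15). Its partner Col9a3, which overlaps Tcfl5 on the other strand, stood at 1.55 and 2.28 CPM in TKO cells, against 0.750 and 1.15 CPM in wild-type cells (0.99, SE 0.27, adjusted p = 0.00227). That call was lost without TKO vehicle replicate 2 (0.69, adjusted p = 0.0749). Their other partner, Col9a1, had 13 and 13 counts in TKO cells and 0 and 1 in wild-type cells (adjusted p = 0.000225), a ratio of 26.3 with a 95% counting interval of 4.31 to 1080. All 3 chains of this collagen were called higher. Col9a1, however, passed the filter on low counts only through the TKO vehicle libraries, so its call adds no separate weight to this. Col22a1, found at tissue junctions, stood at 4.71 and 4.59 CPM in TKO cells, against 0.50 and 0.684 CPM in wild-type cells (2.95, SE 0.24, adjusted p = 8.36e-11). Col14a1 rose by 1.73 (SE 0.48, adjusted p = 0.00281). The call of Col12a1 (1.57, SE 0.65, adjusted p = 0.0363) was lost without TKO vehicle replicate 1 (0.80, adjusted p = 0.454), without wild-type vehicle replicate 2 (1.13, adjusted p = 0.226) and without either TKO inhibitor library (adjusted p = 0.0506 and 0.0518).

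Type VI collagen forms the beaded filaments around cells from an obligatory pair, the Col6a1 and Col6a2 products, and a further chain that can come from Col6a3, Col6a4, Col6a5 or Col6a6. The obligatory pair rose together. Col6a1 stood at 1.04 and 0.971 CPM in TKO cells, against 0.143 and 0.218 CPM in wild-type cells (2.44, SE 0.43, adjusted p = 2e-05). Col6a2 stood at 1.38 and 1.47 CPM in TKO cells, against 0.286 and 0.342 CPM in wild-type cells (2.16, SE 0.37, adjusted p = 1.6e-05). Of the further chains, Col6a5 rose to 7.14 and 6.83 CPM in TKO cells, against 1.11 and 1.37 CPM in wild-type cells (2.48, SE 0.18, adjusted p = 1.5e-11). Col6a3 (1.24, SE 0.69, adjusted p = 0.112), Col6a4 (-0.41, SE 0.20, adjusted p = 0.0713) and Col6a6 (-0.32, SE 0.35, adjusted p = 0.434) were not called.

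Outside these classes Col13a1, a transmembrane collagen of the neuromuscular junction, showed the largest fall of any tested member in this comparison. It stood at 3.40 and 3.45 CPM in TKO cells, against 15.5 and 15.1 CPM in wild-type cells (-2.15, SE 0.11, adjusted p = 2.35e-14). Col23a1, another transmembrane chain, rose by 2.28 (SE 0.57, adjusted p = 0.00107), by 1.53 without wild-type vehicle replicate 1 and by 4.20 without wild-type vehicle replicate 2. Col17a1 of the hemidesmosome was not called (0.57, SE 0.30, adjusted p = 0.0996). Col7a1, the anchoring fibril chain of skin, stood at 4.31 and 4.18 CPM in TKO cells, against 1.96 and 1.62 CPM in wild-type cells (1.25, SE 0.18, adjusted p = 9.73e-07). Col8a2, a chain of the corneal endothelial membrane, stood at 3.77 and 2.88 CPM in TKO cells, against 0.929 and 1.49 CPM in wild-type cells (1.44, SE 0.23, adjusted p = 7.41e-06), and its partner Col8a1 was too low to test. The abundant Col18a1 fell to 466 and 467 CPM in TKO cells, against 557 and 578 CPM in wild-type cells (-0.28, SE 0.05, adjusted p = 8.34e-06). The second collagen of that class, Col15a1, was not called (-0.49, SE 0.28, adjusted p = 0.127).

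Of the basement membrane chains, Col4a5 on the X chromosome had 13 and 17 counts in TKO cells and 1 and 0 in wild-type cells (adjusted p = 0.000668), a ratio of 30.3 with a 95% counting interval of 5.04 to 1240. Col4a4 had 2 and 0 counts in TKO cells and 3 and 2 in wild-type cells and was not called (adjusted p = 0.354). Their partner Col4a3 had 2 and 1 counts in TKO cells and 0 and 1 in wild-type cells, and Col4a6 had 3 and 4 in TKO cells and 0 in both wild-type libraries, and neither was tested. Col26a1 was called higher (1.01, SE 0.35, adjusted p = 0.0131), but not without TKO vehicle replicate 2 (0.81, adjusted p = 0.125) or wild-type vehicle replicate 1 (0.90, adjusted p = 0.0724). Whole chromosomes also moved between the genotypes. The median log2 change of chromosome 1 genes lay 0.42 below that of the other autosomes (difference -0.42), and that of X-linked genes lay 0.36 above. Chromosome 1 carries 7 of the members, among them Col3a1, Col5a2 and Col9a1, which were called higher. The 29 tested members on other chromosomes had a median of 1.01, with 18 higher and 3 lower.

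Markers of cells known to make fibrillar collagen moved in both directions. Of the 18 fibroblast markers 12 were tested under vehicle, and 6 rose, each by more than 2-fold, while 5 fell (median log2 change 0.88). Of all genes 34.8% were called higher, 19.1% by more than 2-fold, and 34.2% lower. Twist1, a mesenchymal transcription factor, stood at 8.31 and 8.84 CPM in TKO cells, against 0.964 and 1.12 CPM in wild-type cells (3.03, SE 0.18, adjusted p = 1.52e-13). Tagln (1.72), Fbln2 (1.89), Thbs2 (3.63), Acta2 and Postn were also called higher. Acta2 stood at 3.16 and 3.25 CPM in TKO cells, against 0 and 0.0622 CPM in wild-type cells, and Postn at 0.976 and 1.21 CPM in TKO cells and 0 in both wild-type libraries. Prrx2 fell to 2.86 and 2.98 CPM in TKO cells, against 28.3 and 31.2 CPM in wild-type cells (-3.35, SE 0.11, adjusted p = 1.18e-18), and Thy1, Pdgfrb, Mfap5 and Loxl1 were also called lower. The 18 markers summed to 57.0 and 56.1 CPM in TKO cells, against 74.1 and 77.6 CPM in wild-type cells. Prrx2 alone set that direction, since the other 17, a split chosen after seeing the data, summed to 54.1 and 53.1 CPM in TKO cells, against 45.8 and 46.4 CPM in wild-type cells. Fap was at 0 in both groups, and Dcn and Lum reached at most 0.167 and 0.0673 CPM in TKO libraries and were at 0 in wild-type libraries. The 10 chondrocyte markers summed to 17.7 and 18.2 CPM in TKO cells, against 19.8 and 19.3 CPM in wild-type cells, with 1 of 7 tested higher and 2 lower, and Cnmd at 0 in both. The 10 trophoblast markers summed to 978 and 943 CPM in TKO cells, against 99.3 and 87.9 CPM in wild-type cells, with 9 of 10 higher. The embryonic stem cell markers summed to 4665 and 4673 CPM in TKO cells, against 6217 and 6122 CPM in wild-type cells, and the endoderm markers to 2071 and 2168 against 2960 and 3025 CPM. Within the endoderm sum Lamc1 alone stood at 707 and 753 CPM in TKO cells, against 1390 and 1442 CPM in wild-type cells. Of the 14 endoderm markers 9 were called lower and 2 higher. The part of these markers' cells in the collagen changes was not tested.

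**Figure D2:**
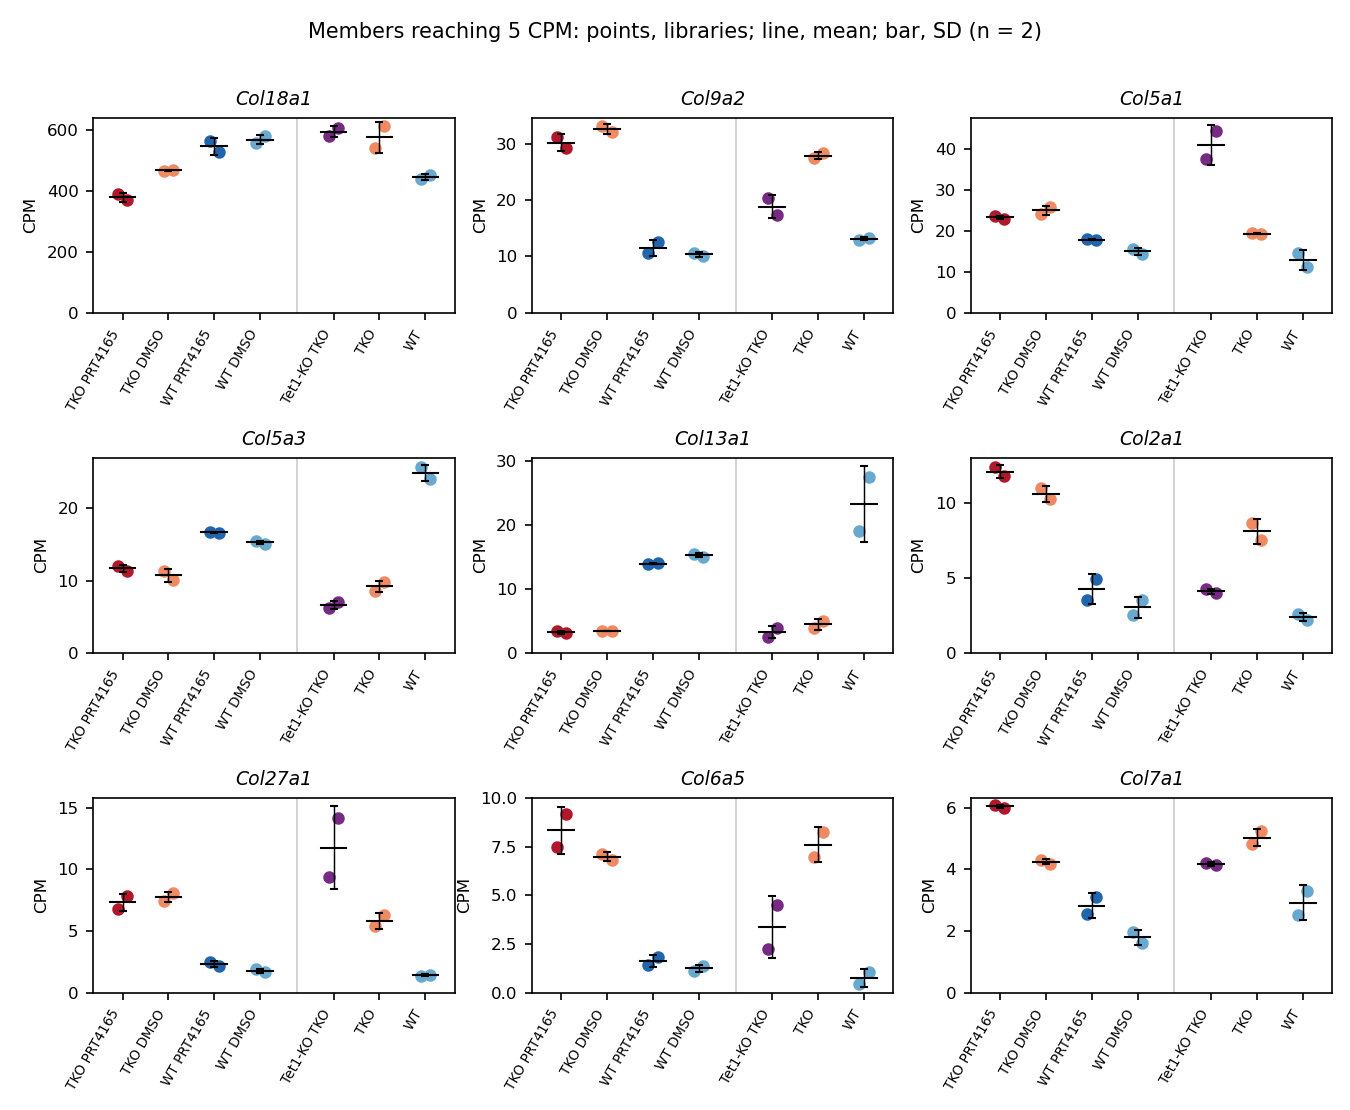
CPM of the 9 collagen genes that reached a mean of 5 CPM in any group, with points for libraries, a line for the group mean and a bar for the SD (n = 2), experiment 1 left of the grey line and experiment 2 right of it. The TKO points of Col9a2, Col2a1, Col27a1 and Col6a5 lie above, and those of Col5a3 and Col13a1 below, the wild-type points of the same experiment.

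The untreated cells of experiment 2 gave the same genotype comparison in other libraries. In TKO cells 16 collagen genes rose and 6 fell of 31 tested, against 25.9% of all 16303 genes called higher and 24.3% lower. A rise of more than 2-fold was called for 13 members, against 14.5% of all genes, and a fall of more than 2-fold for 6, against 8.46%. The median log2 change over the tested members was 0.80. Col5a2 stood at 2.67 and 3.13 CPM in TKO cells, against 0.176 and 0.353 CPM in wild-type cells (3.48, SE 0.36, adjusted p = 1.02e-05). Col2a1 stood at 8.67 and 7.49 CPM in TKO cells, against 2.58 and 2.21 CPM in wild-type cells (1.75, SE 0.20, adjusted p = 2.01e-05). Col9a2 stood at 27.4 and 28.4 CPM in TKO cells, against 13.0 and 13.3 CPM in wild-type cells (1.08, SE 0.13, adjusted p = 2.82e-05). In each of these genes the groups were well apart.

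Col6a5 stood at 6.96 and 8.23 CPM in untreated TKO cells, against 0.424 and 1.06 CPM in wild-type cells (3.40, SE 0.40, adjusted p = 2.83e-05), and at 4.15 without wild-type replicate 2. Col27a1 stood at 5.37 and 6.29 CPM in TKO cells, against 1.38 and 1.46 CPM in wild-type cells (2.04, SE 0.25, adjusted p = 4.16e-05). Col5a1 stood at 19.5 and 19.2 CPM in TKO cells, against 14.5 and 11.2 CPM in wild-type cells (0.59, SE 0.15, adjusted p = 0.00579). Col22a1 (1.94, SE 0.29, adjusted p = 0.000163), Col11a1 (1.53, SE 0.25, adjusted p = 0.00029) and Col1a2 (3.23, SE 0.81, adjusted p = 0.00589) also rose, and Col1a2 by 2.5 without TKO replicate 2. Of the genes that fell, Col13a1 stood at 3.81 and 5.04 CPM in TKO cells, against 19.1 and 27.5 CPM in wild-type cells (-2.40, SE 0.23, adjusted p = 6.19e-06). Col5a3 stood at 8.61 and 9.75 CPM in TKO cells, against 25.7 and 24.1 CPM in wild-type cells (-1.44, SE 0.14, adjusted p = 6.06e-06). Both fell in every pairing of TKO with wild-type libraries.

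Of the 22 calls in untreated cells, 11 were kept under every alternative and 11 were lost when at least 1 library was left out. Without any single one of the 4 libraries compared, adjusted p was 0.0979 to 0.162 for Col23a1 (1.01, SE 0.38, adjusted p = 0.042), 0.0819 to 0.212 for Col4a5 (1.35, SE 0.49, adjusted p = 0.0363) and 0.0518 to 0.0979 for Col14a1 (2.12, SE 0.63, adjusted p = 0.014). Col12a1 (1.91, SE 0.54) was lost without TKO replicate 1 (adjusted p = 0.0535) and wild-type replicate 1 (1.34, adjusted p = 0.109), and stood at 2.64 without wild-type replicate 2. Col6a2 (1.67, SE 0.43) was lost without TKO replicate 1 (adjusted p = 0.057) and wild-type replicate 1 (adjusted p = 0.06). Col7a1 (0.80, SE 0.21) was lost without TKO replicate 2 (adjusted p = 0.0507) and wild-type replicate 1 (adjusted p = 0.0682), and Col18a1 (0.37, SE 0.10, adjusted p = 0.00891) without TKO replicate 2 (0.28, adjusted p = 0.162).

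Of the falls, Col11a2 (-1.12, SE 0.34) was lost without TKO replicate 2 (adjusted p = 0.0921) and wild-type replicate 2 (-0.69, adjusted p = 0.163). Col15a1 (-1.22, SE 0.37) was lost without TKO replicate 2 (adjusted p = 0.136) and wild-type replicate 1 (adjusted p = 0.0956). Col6a6, one of the further chains of type VI collagen, stood at 0.654 and 0.872 CPM in TKO cells, against 1.55 and 2.29 CPM in wild-type cells (-1.33, SE 0.37, adjusted p = 0.00997). It was lost without TKO replicate 1 (adjusted p = 0.0856) and wild-type replicate 2 (adjusted p = 0.0858). Col20a1, a fibril-associated chain that overlaps another transcript, stood at 0.512 and 0.807 CPM in TKO cells, against 1.84 and 2.38 CPM in wild-type cells (-1.68, SE 0.44, adjusted p = 0.00709), and was lost without TKO replicate 1 (-1.38, adjusted p = 0.0549). Chromosome 1 genes again lay below the other autosomes (difference -0.46).

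The genotype comparisons of the 2 experiments share no library. Of 31 members tested in both, 15 were called higher in both. This is 78.9% of those called higher under vehicle and 93.8% of those called higher without treatment. The matching shares over all genes were not computed, so this agreement is not read as particular to collagen genes. Col5a3 and Col13a1 were called lower in both. Col6a1, Col8a2, Col9a3 and Col26a1 were called under vehicle alone, Col6a6, Col11a2, Col15a1 and Col20a1 in untreated cells alone, and Col1a1, Col6a3, Col6a4, Col16a1 and Col17a1 in neither. Whether these effects differ between the experiments was not tested. Col18a1 was the single member called in opposite directions. It stood at 539 and 611 CPM in untreated TKO cells, against 438 and 451 CPM in untreated wild-type cells, whereas it was lower in TKO cells under vehicle. Col3a1, at least 20.2-fold higher under vehicle, had 7 and 5 counts in untreated TKO cells and 2 and 0 in untreated wild-type cells and was not tested there. Of the fibroblast markers 5 of 11 tested were higher and 5 lower in untreated TKO cells. They summed to 50.8 and 56.0 CPM in TKO cells, against 74.8 and 82.6 CPM in wild-type cells, and without Prrx2 to 48.8 and 54.2 against 43.3 and 45.4 CPM, so that Prrx2 again set the direction. Trophoblast markers summed to 215 and 213 CPM in TKO cells, against 77.1 and 80.9 CPM in wild-type cells. Of all genes in this untreated comparison 25.9% were called higher and 24.3% lower, with 8.46% lower by more than 2-fold. Of the endoderm markers 7 of 14 were called lower in TKO cells, 6 of them by more than 2-fold, and of the embryonic stem cell markers 7 of 10. The part of these cells in the collagen values was not tested. CPM were normalised within each experiment, so levels are not compared between them.

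**Figure D3:**
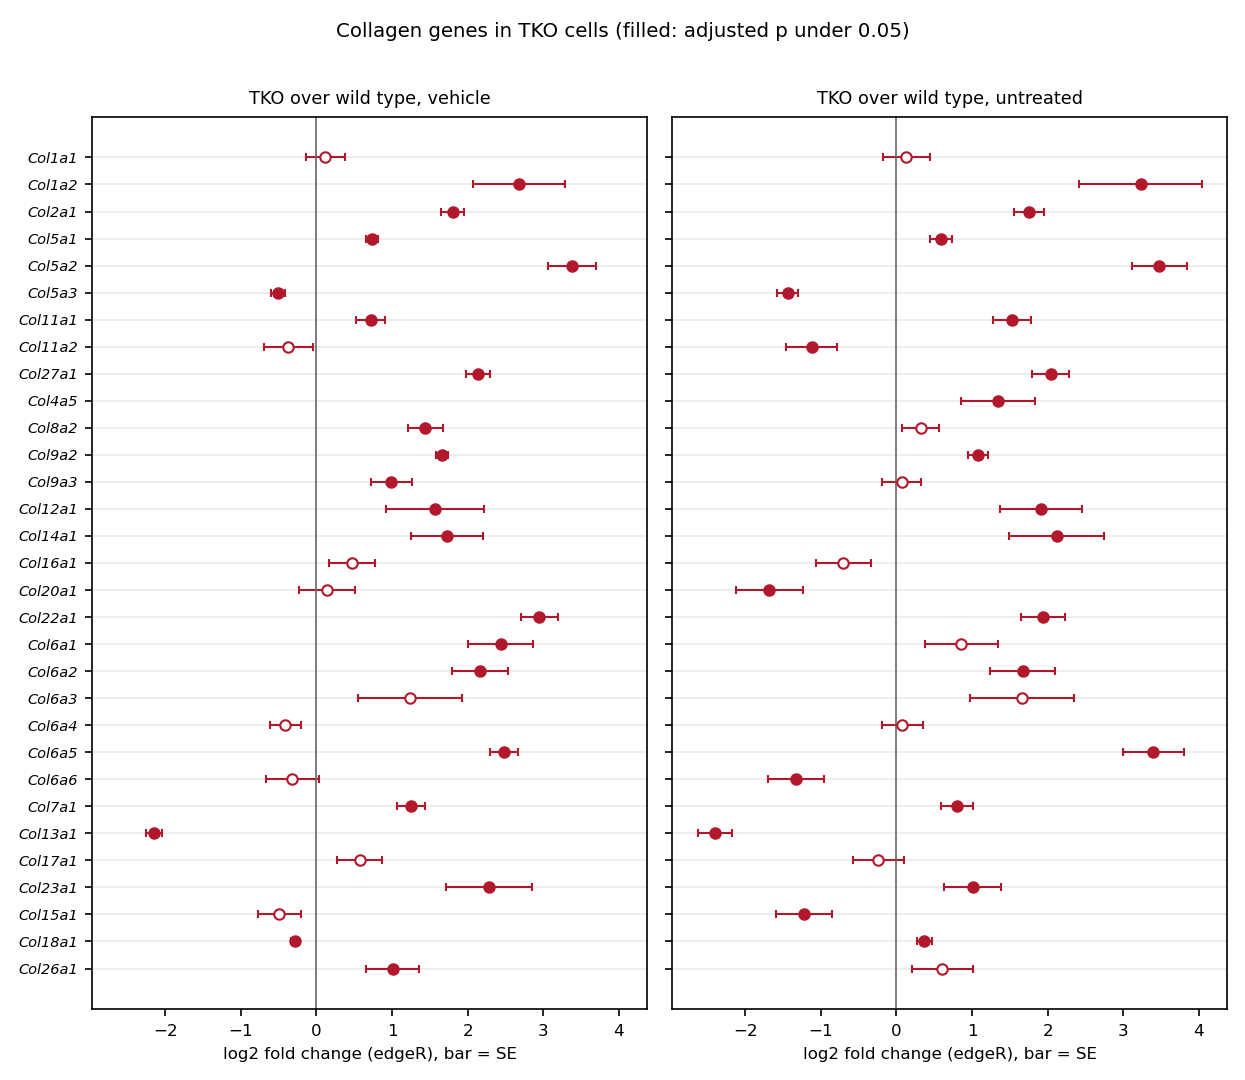
Log2 fold changes of collagen genes in TKO over wild-type cells with their SE, under vehicle on the left and untreated on the right, filled where adjusted p was under 0.05. Genes with 3 or fewer counts over a group are not drawn in that panel. Most filled points lie right of 0 in both panels, and Col5a3 and Col13a1 lie left of 0 in both.

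The PRC1 inhibitor was compared with its vehicle within each genotype. In TKO cells 4 of 34 collagen genes tested rose and 2 fell with PRT4165. These shares of 11.8% and 5.88% were below the 19.9% of all genes called higher and 19.6% lower. Col11a2 rose to 2.22 and 3.48 CPM with PRT4165, against 0.774 and 1.00 CPM with DMSO (1.66, SE 0.27, adjusted p = 3e-05). Col18a1 fell to 388 and 369 CPM with PRT4165, against 466 and 467 CPM with DMSO (-0.30, SE 0.05, adjusted p = 1.43e-05). These 2 calls held under every alternative. Col4a4 had 13 and 12 counts with PRT4165 and 2 and 0 with DMSO (adjusted p = 0.00252), a ratio of 10.8 with a 95% counting interval of 2.70 to 94.4, and was lost without DMSO replicate 2 (adjusted p = 0.0707). Its partner Col4a3, not tested, had 8 and 19 counts with PRT4165 and 2 and 1 with DMSO, a ratio of 7.81 (95% counting interval 2.40 to 40.2).

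Col20a1 stood at 1.21 and 1.49 CPM with PRT4165, against 0.673 and 0.536 CPM with DMSO in TKO cells (1.15, SE 0.31, adjusted p = 0.00452), and was lost without DMSO replicate 2 (adjusted p = 0.0691) and PRT4165 replicate 2 (adjusted p = 0.0541). Col7a1 stood at 6.08 and 6.0 CPM with PRT4165, against 4.31 and 4.18 CPM with DMSO (0.51, SE 0.14, adjusted p = 0.00577), and was lost without DMSO replicate 2 (adjusted p = 0.0593). Col8a2 stood at 1.97 and 2.27 CPM with PRT4165, against 3.77 and 2.88 CPM with DMSO (-0.65, SE 0.21, adjusted p = 0.0145), and was lost without DMSO replicate 1 (adjusted p = 0.201) and PRT4165 replicate 1 (adjusted p = 0.105). Col4a5 stood at 18 and 1 counts in the PRT4165 replicates, so that 1 library held nearly all of its reads there.

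In wild-type cells 6 collagen genes rose with PRT4165 and none was called lower in edgeR, where 10 members had an unadjusted p under 0.05, while DESeq2 called 2 higher and 0 lower. Of the 34 members tested 17.6% were called higher and 0% lower in edgeR, against 19.0% and 18.7% of all genes. None of the 6 calls held under every alternative. Col7a1 stood at 2.54 and 3.10 CPM with PRT4165, against 1.96 and 1.62 CPM with DMSO (0.64, SE 0.19, adjusted p = 0.00977), and was lost without DMSO replicate 2 (adjusted p = 0.0946) and PRT4165 replicate 2 (adjusted p = 0.0801). Col5a1 stood at 18 and 17.8 CPM with PRT4165, against 15.5 and 14.5 CPM with DMSO (0.26, SE 0.08, adjusted p = 0.0125), and was lost without DMSO replicate 2 (adjusted p = 0.0946) and PRT4165 replicate 1 (adjusted p = 0.0654). In both genes the PRT4165 libraries lay above the DMSO libraries.

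Col23a1 stood at 0.456 and 0.612 CPM with PRT4165, against 0.0357 and 0.249 CPM with DMSO in wild-type cells (1.78, SE 0.61, adjusted p = 0.0239). It was lost without DMSO replicate 1 (1.07, adjusted p = 0.203) and PRT4165 replicate 2 (1.60, adjusted p = 0.114) and stood at 3.73 without DMSO replicate 2. Col11a2 stood at 1.77 and 2.16 CPM with PRT4165, against 1.39 and 0.933 CPM with DMSO (0.75, SE 0.28, adjusted p = 0.0368). It was lost without DMSO replicate 2 (0.48, adjusted p = 0.27) and without either PRT4165 replicate (adjusted p = 0.0532 and 0.173). Col2a1 (0.45, SE 0.17, adjusted p = 0.0445) was lost without DMSO replicate 1 (adjusted p = 0.319), without PRT4165 replicate 2 (adjusted p = 0.401) and without any 1 of the TKO libraries (adjusted p = 0.0536 to 0.0638). Col4a4 (1.81, SE 0.72, adjusted p = 0.0497) was lost without any 1 library of the experiment (adjusted p = 0.0635 to 0.254). Its counts were 10 and 8 with PRT4165, against 3 and 2 with DMSO.

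Col4a4, Col7a1 and Col11a2 were called higher in both genotypes. The interaction, the inhibitor's effect in TKO cells minus that in wild-type cells, was called for 1 of 34 members, against 1.77% of all genes called higher and 2.12% lower. This was Col18a1, with an interaction of -0.25 (SE 0.07, adjusted p = 0.0338). Its level with PRT4165 was 388 and 369 CPM in TKO cells and 565 and 526 CPM in wild-type cells, and with DMSO it was 466 and 467 CPM in TKO cells and 557 and 578 CPM in wild-type cells. The call was lost without either TKO DMSO library (adjusted p = 0.106 and 0.11), without wild-type PRT4165 replicate 1 (adjusted p = 0.146) and without TKO PRT4165 replicate 2 (adjusted p = 0.121). Col5a1 came next (-0.36, SE 0.11, adjusted p = 0.0569). Embryonic stem cell markers summed to 3626 and 3448 CPM in TKO cells with PRT4165, against 4665 and 4673 CPM with DMSO, and in wild-type cells to 5361 and 5144 CPM with PRT4165, against 6217 and 6122 CPM with DMSO. Endoderm markers summed to 1942 and 1965 CPM with PRT4165 in TKO cells, against 2071 and 2168 CPM with DMSO, and in wild-type cells to 3413 and 3228 against 2960 and 3025 CPM. Trophoblast markers summed to 1320 and 1314 CPM with PRT4165 in TKO cells, against 978 and 943 CPM with DMSO, and in wild-type cells to 145 and 139 against 99.3 and 87.9 CPM. Their part in the collagen values was not tested.

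**Figure D4:**
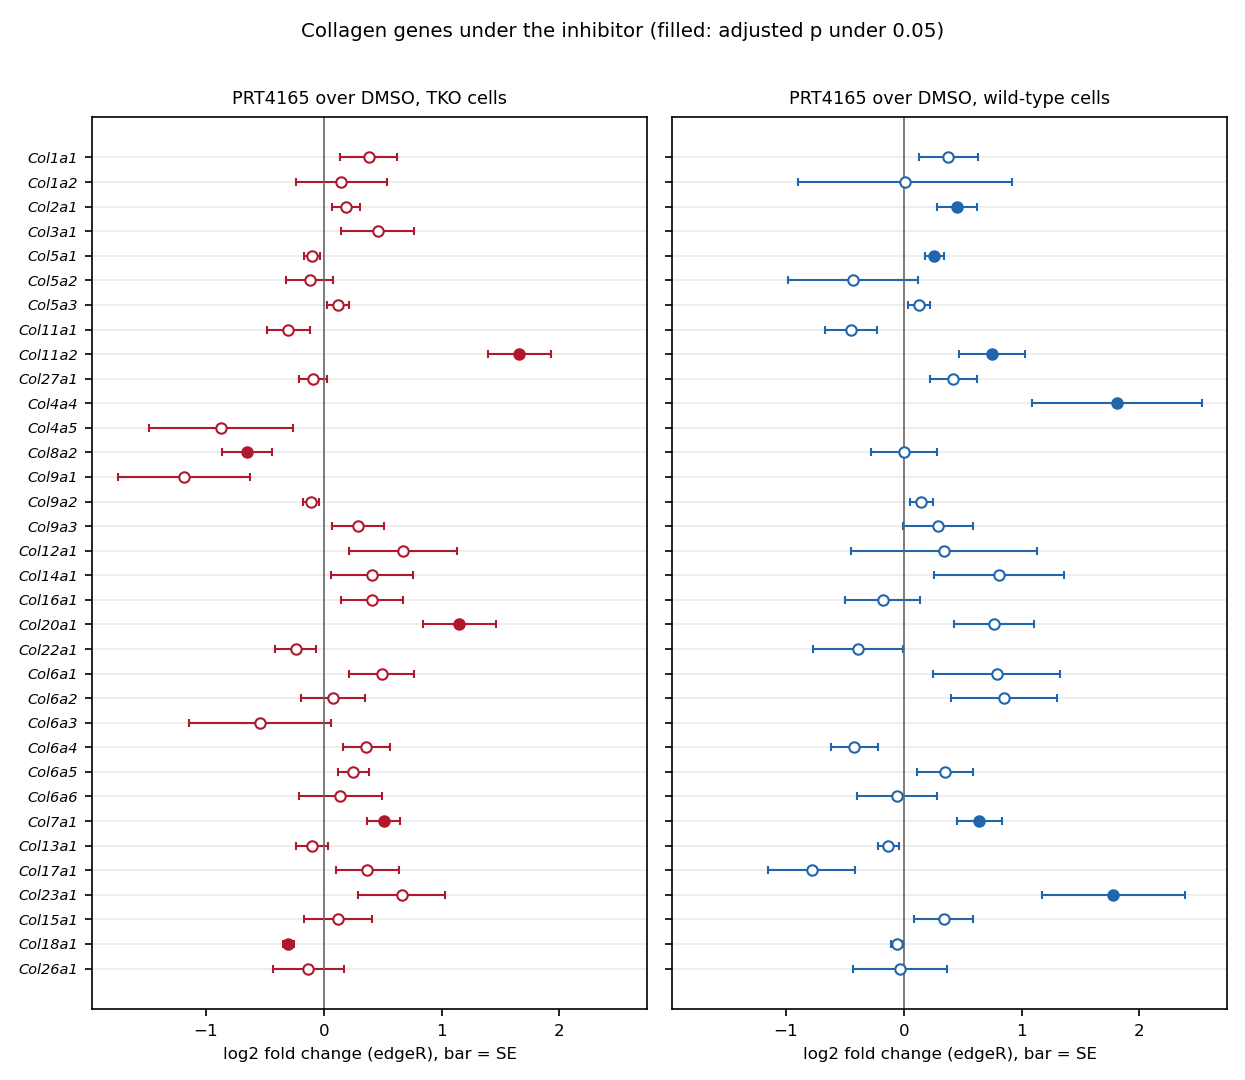
Log2 fold changes of collagen genes with PRT4165 over DMSO with their SE, in TKO cells on the left and wild-type cells on the right, filled where adjusted p was under 0.05. Genes with 3 or fewer counts over a group are not drawn in that panel. Col11a2 and Col7a1 are filled right of 0 in both panels, and Col18a1 is filled left of 0 in TKO cells.

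The comparison of Tet1-KO TKO with TKO cells asked what the further loss of Tet1 goes with. In Tet1-KO TKO cells 3 collagen genes rose and 10 fell of 31 tested, against 11.6% of all genes called higher and 10.4% lower. The count of falls rested on single libraries: it was 2 without TKO replicate 2, 5 without Tet1-KO TKO replicate 2, 6 without either other library, and 6 in DESeq2. The median log2 change over the tested members was -0.56. Col5a1 rose to 37.5 and 44.5 CPM in Tet1-KO TKO cells, against 19.5 and 19.2 CPM in TKO cells (1.08, SE 0.14, adjusted p = 0.000327). Col27a1 rose to 9.37 and 14.2 CPM in Tet1-KO TKO cells, against 5.37 and 6.29 CPM in TKO cells (1.01, SE 0.21, adjusted p = 0.00478). Col2a1 fell to 4.21 and 3.98 CPM in Tet1-KO TKO cells, against 8.67 and 7.49 CPM in TKO cells (-0.98, SE 0.18, adjusted p = 0.00297). These 3 calls alone held under every alternative.

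Of the type VI chains, which sit together in the beaded filament class, 1 rose and 4 fell. Col6a2 stood at 0.242 and 0.417 CPM in Tet1-KO TKO cells, against 1.39 and 1.13 CPM in TKO cells (-1.92, SE 0.41, adjusted p = 0.00618), and was lost without TKO replicate 1 (adjusted p = 0.0645). Col6a3 stood at 0.967 and 1.69 CPM in Tet1-KO TKO cells, against 0.256 and 0.517 CPM in TKO cells (1.80, SE 0.44, adjusted p = 0.0137), and was lost without TKO replicate 1 (adjusted p = 0.141) and Tet1-KO TKO replicate 2 (adjusted p = 0.125). Col6a5 stood at 2.25 and 4.52 CPM in Tet1-KO TKO cells, against 6.96 and 8.23 CPM in TKO cells (-1.16, SE 0.32, adjusted p = 0.0225), and was lost without TKO replicate 2 (adjusted p = 0.0952) and Tet1-KO TKO replicate 1 (adjusted p = 0.11). Thus Col6a3 and Col6a5, alternatives for the further chain, had opposite signs.

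Col6a4 (-1.11, SE 0.28) was lost without TKO replicate 2 (adjusted p = 0.155) and Tet1-KO TKO replicate 2 (adjusted p = 0.0773), and Col6a6 (-1.49, SE 0.44) without TKO replicate 1 or 2 (adjusted p = 0.0661 and 0.178) and Tet1-KO TKO replicate 1 (adjusted p = 0.172). Col9a2 stood at 20.3 and 17.4 CPM in Tet1-KO TKO cells, against 27.4 and 28.4 CPM in TKO cells (-0.56, SE 0.12, adjusted p = 0.00734), and was lost without TKO replicate 2 (adjusted p = 0.066) and Tet1-KO TKO replicate 2 (adjusted p = 0.0622). Col8a2 stood at 1.58 and 2.06 CPM in Tet1-KO TKO cells, against 3.24 and 4.29 CPM in TKO cells (-1.04, SE 0.25, adjusted p = 0.011), and was lost without TKO replicate 2 (adjusted p = 0.117) and Tet1-KO TKO replicate 1 (adjusted p = 0.0614). Col1a1 (-1.09, SE 0.31) was lost without replicate 2 of either group (adjusted p = 0.219 and 0.151). Col22a1 (-0.89, SE 0.25) was lost without either TKO library (adjusted p = 0.127 and 0.112) and Tet1-KO TKO replicate 2 (adjusted p = 0.157), and Col5a3 (-0.46, SE 0.14) without any 1 of the 4 libraries (adjusted p = 0.0659 to 0.271).

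Beside these changes the 14 endoderm markers summed to 1691 and 3254 CPM in Tet1-KO TKO cells, against 1205 and 1647 CPM in TKO cells, with 9 of 14 called higher. Of all genes in this comparison 11.6% were called higher and 10.4% lower. The 10 trophoblast markers summed to 638 and 803 CPM, against 215 and 213 CPM, with 9 higher. The 18 fibroblast markers summed to 54.1 and 48.2 CPM, against 50.8 and 56.0 CPM, with 1 of 11 tested higher and 3 lower. Their part in the collagen values was not tested. Col5a1 and Col27a1 were higher in Tet1-KO TKO replicate 2, the library with the higher endoderm sum, than in replicate 1. Both Tet1-KO TKO libraries had a higher endoderm sum than either TKO library. The untreated wild-type libraries summed to 1834 and 2227 CPM, also above both TKO libraries. Col5a1 stood at 14.5 and 11.2 CPM in those wild-type libraries, and both genes were lower there than in TKO cells. Between the TKO replicates, whose sums also differed, Col5a1 was nearly the same (19.5 and 19.2 CPM) and Col27a1 was higher in replicate 2. Whether these genes go with the endoderm sum was not tested.

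The comparisons of experiment 2 share libraries, so their values are only set side by side. Against wild-type cells, Tet1-KO TKO cells had 11 collagen genes higher and 9 lower of 31 tested. This is 35.5% and 29.0%, against 26.3% and 24.4% of all genes. Col27a1 stood at 9.37 and 14.2 CPM in Tet1-KO TKO cells, against 1.38 and 1.46 CPM in wild-type cells (3.06, SE 0.25, adjusted p = 9.9e-07). Col5a1 stood at 37.5 and 44.5 CPM, against 14.5 and 11.2 CPM in wild-type cells (1.67, SE 0.15, adjusted p = 1.95e-06). Col5a2 stood at 3.06 and 2.70 CPM, against 0.176 and 0.353 CPM in wild-type cells (3.47, SE 0.36, adjusted p = 8.17e-06). Across the 3 untreated genotypes the order of Col27a1 and Col5a1 was the same, with Tet1-KO TKO highest, TKO next and wild type lowest, and the libraries of the 3 groups did not overlap.

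Of the other genes, Col6a3 rose to 0.967 and 1.69 CPM in Tet1-KO TKO cells, against 0.106 and 0.132 CPM in wild-type cells (3.46, SE 0.58, adjusted p = 0.000352). Col5a3 fell to 6.25 and 7.04 CPM, against 25.7 and 24.1 CPM in wild-type cells (-1.90, SE 0.14, adjusted p = 5.45e-07). Col13a1 fell to 2.52 and 3.85 CPM, against 19.1 and 27.5 CPM in wild-type cells (-2.86, SE 0.24, adjusted p = 1.34e-06). Col6a6 fell to 0.188 and 0.344 CPM, against 1.55 and 2.29 CPM in wild-type cells (-2.81, SE 0.41, adjusted p = 0.000136). Col11a2 fell to 0.537 and 0.761 CPM, against 1.80 and 3.09 CPM in wild-type cells (-1.89, SE 0.36, adjusted p = 0.00084). By mean these falling genes were lowest in Tet1-KO TKO cells of the 3 genotypes. Between Tet1-KO TKO and TKO cells, however, Col11a2 and Col13a1 were not called, and the calls of Col5a3 and Col6a6 depended on single libraries.

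Of the remaining calls against wild-type cells, Col2a1 (0.77), Col9a2 (0.52), Col6a5 (2.24), Col15a1 (-1.71) and Col18a1 (0.42) held under every alternative, with Col6a5 at 2.99 without wild-type replicate 2. Calls of 7 genes did not. Col1a2 (3.16, SE 0.81) was lost without Tet1-KO TKO replicate 2 (1.92, adjusted p = 0.0844) and wild-type replicate 1 (adjusted p = 0.0509) and stood at 3.8 without Tet1-KO TKO replicate 1. Col11a1 (0.91) was lost without wild-type replicate 1 (adjusted p = 0.0582). Without that library Col1a1 (-0.96), Col22a1 (1.05), Col6a4 (-1.03) and Col8a2 (-0.72) were lost too (adjusted p = 0.132, 0.0611, 0.0545 and 0.0774). Col1a1 and Col6a4 were also lost without Tet1-KO TKO replicate 2 (adjusted p = 0.151 and 0.0531), Col22a1 and Col8a2 without Tet1-KO TKO replicate 1 (adjusted p = 0.0867 and 0.152) and Col8a2 without wild-type replicate 2 (adjusted p = 0.0851). Col20a1 (-1.18) was lost without Tet1-KO TKO replicate 1 (-0.66, adjusted p = 0.18) and wild-type replicate 2 (adjusted p = 0.137), and stood at -2.03 without Tet1-KO TKO replicate 2.

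**Figure D5:**
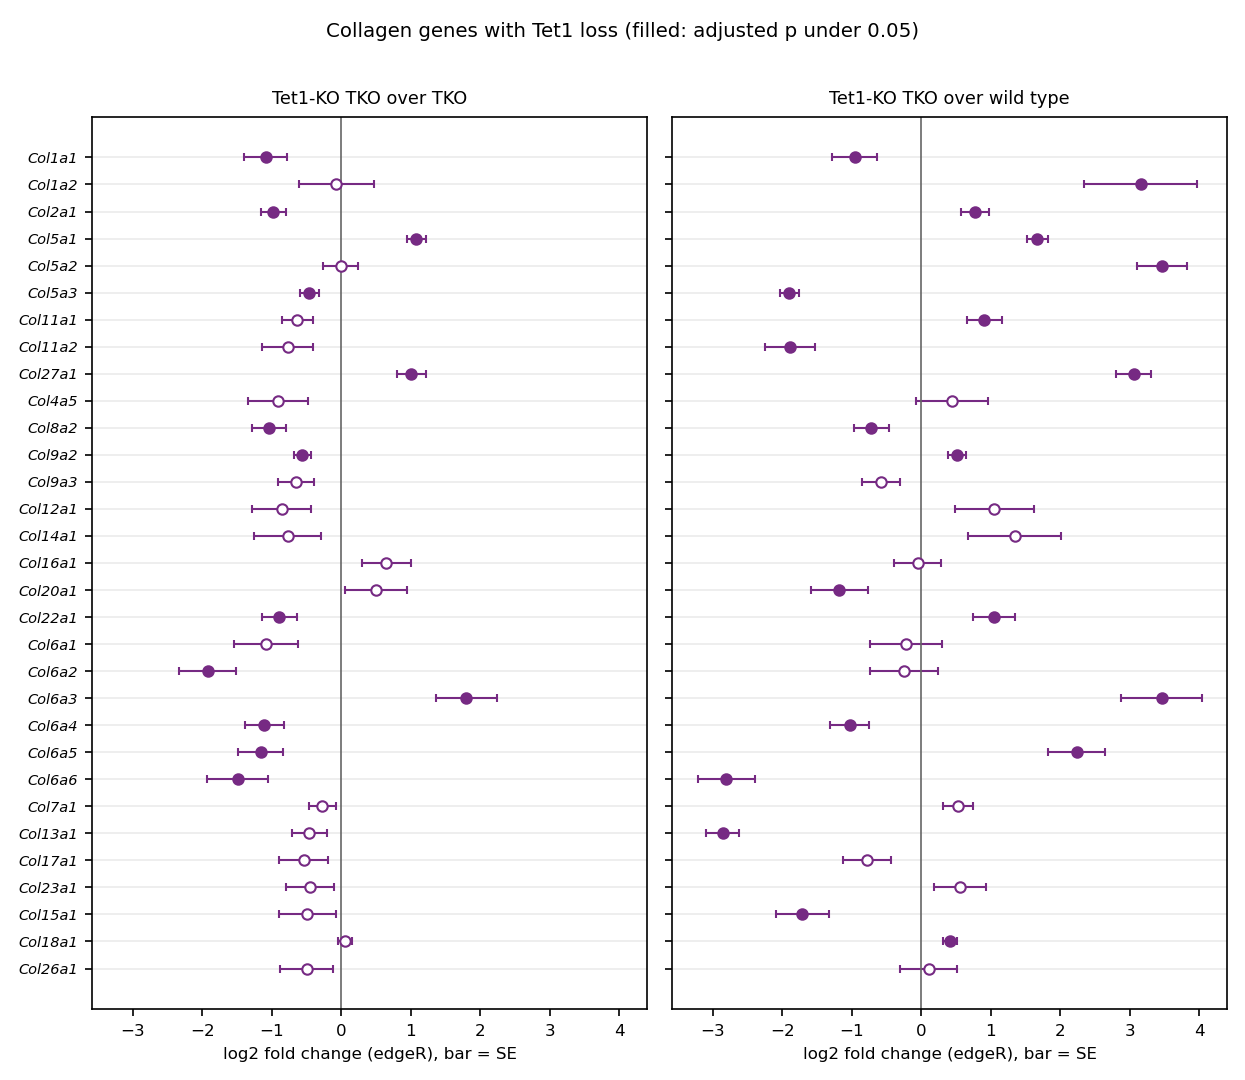
Log2 fold changes of collagen genes in Tet1-KO TKO cells over TKO cells on the left and over wild-type cells on the right, with their SE, filled where adjusted p was under 0.05. Genes with 3 or fewer counts over a group are not drawn in that panel. Col5a1, Col27a1 and Col6a3 are filled right of 0 in both panels.

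The genes that make, fold, trim, crosslink, bind and break down collagen were followed as a list of 55. Under vehicle 21 were higher and 12 lower in TKO cells of 50 tested, which is 42.0% and 24.0%, against 34.8% and 34.2% of all genes. Their median log2 change was 0.19. The genes named next from this list are those with the smallest p in each comparison. Pcolce, which speeds removal of the C-propeptide and overlaps Fbxo24, fell to 73.6 and 74.1 CPM in TKO cells, against 197 and 207 CPM in wild-type cells (-1.45, SE 0.05, adjusted p = 4.14e-18). Mmp14, a membrane-bound collagenase, fell to 27.6 and 28 CPM in TKO cells, against 85.1 and 89.8 CPM in wild-type cells (-1.65, SE 0.06, adjusted p = 4.28e-18). Adamts14, an N-propeptidase, fell by 1.40 (log2 -1.40, SE 0.07) and the foldase gene Fkbp10, which overlaps Nt5c3b, by 1.25 (log2 -1.25, SE 0.08). These 4 genes were also called lower in untreated TKO cells (Pcolce -0.75, Mmp14 -1.23, Adamts14 -0.82 and Fkbp10 -0.82), as was P3h4 (-0.92, SE 0.14, adjusted p = 0.000214).

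Of the collagen receptor genes 5 of 8 tested were called higher under vehicle, against 34.8% of all genes. In untreated cells 3 of 7 were called higher and 1 lower, against 25.9% and 24.3%. Itga1, the collagen-binding subunit of an integrin, rose to 3.60 and 3.75 CPM in TKO vehicle cells, against 0.429 and 0.342 CPM in wild-type vehicle cells (3.25, SE 0.26, adjusted p = 7.54e-11). In untreated cells it stood at 4.01 and 3.10 CPM in TKO cells, against 0.106 and 0.176 CPM in wild-type cells (4.65, SE 0.38, adjusted p = 1.55e-06). The receptor kinase gene Ddr1, which overlaps Gm4577, rose by 1.02 under vehicle (SE 0.06) and by 1.08 untreated (SE 0.11), and Ddr2 by 2.35 untreated (SE 0.25, adjusted p = 1.2e-05). Timp3, an inhibitor of metalloproteinases that overlaps Syn3, rose by 2.26 under vehicle (SE 0.17) and by 2.34 untreated (SE 0.23), and the lysyl hydroxylase gene Plod2 by 0.87 under vehicle (SE 0.06, adjusted p = 1.59e-12). In untreated TKO cells 12 genes of the list were higher and 14 lower of 47 tested, which is 25.5% and 29.8%, against 25.9% and 24.3% of all genes.

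With PRT4165 12 of the 50 genes tested rose and 6 fell in TKO cells, against 19.9% and 19.6% of all genes, and 14 rose and 3 fell in wild-type cells, against 19.0% and 18.7%. Serpinh1, which encodes the collagen chaperone HSP47, rose to 155 and 158 CPM with PRT4165 in TKO cells, against 115 and 118 CPM with DMSO (0.43, SE 0.05, adjusted p = 5.72e-08). In wild-type cells it stood at 283 and 297 CPM with PRT4165, against 128 and 127 CPM with DMSO (1.19, SE 0.04, adjusted p = 5.86e-16). The difference between these effects was called (interaction -0.76, SE 0.06, adjusted p = 2.21e-08). Ctsk, which encodes the collagen-cleaving cathepsin K, stood at 1.53 and 2.55 CPM with PRT4165 in TKO cells, against 0.168 and 0.201 CPM with DMSO (3.43, SE 0.41, adjusted p = 3.76e-07). In wild-type cells Ctsk stood at 1.34 and 1.47 CPM with PRT4165, against 0.0357 and 0.124 CPM with DMSO (4.01, SE 0.52, adjusted p = 1.47e-06). Without wild-type DMSO replicate 2 the change of Ctsk in wild-type cells was 5.15.

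In wild-type cells with PRT4165 the prolyl hydroxylase genes P4ha1 (0.56, SE 0.06) and P4ha2 (0.40, SE 0.07) also rose. In TKO cells the crosslinking enzyme gene Lox rose to 0.849 and 2.33 CPM with PRT4165, against 0.168 and 0.134 CPM with DMSO (3.34, SE 0.54, adjusted p = 2.82e-05), by 2.45 without PRT4165 replicate 2. The N-propeptidase gene Adamts3 rose by 1.56 there (SE 0.19) and Plod2 fell by 0.37 (log2 -0.37, SE 0.05). Itgb1, the partner of all collagen-binding integrin subunits, was lower with PRT4165 in both genotypes (-0.26 in TKO and -0.30 in wild-type cells, SE 0.05 each). Mrc2, an endocytic collagen receptor, was lower in TKO cells (-0.31, SE 0.08), and its call in wild-type cells (-0.22, SE 0.09, adjusted p = 0.0472) was lost without any 1 wild-type library or either TKO DMSO library (highest adjusted p = 0.233). Loxl1 (-0.43, SE 0.15, adjusted p = 0.0244) lost its call in wild-type cells without either DMSO library or PRT4165 replicate 1 (highest adjusted p = 0.252). P3h1 (-0.16, SE 0.05) lost its call in TKO cells without DMSO replicate 1 or PRT4165 replicate 2 (highest adjusted p = 0.0876). Interactions were also called for Plod2 (-0.52, SE 0.08), Loxl2 (-0.54, SE 0.10), P4ha1 (-0.40, SE 0.08) and Loxl1 (0.85, SE 0.24, adjusted p = 0.0469), the last of which was lost without any 1 of 7 libraries (highest adjusted p = 0.238).

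With Tet1 loss 9 genes of the list rose and 6 fell of 47 tested (19.1% and 12.8%, against 11.6% and 10.4% of all genes), and these counts were 0 higher without TKO replicate 1 and 1 lower without TKO replicate 2. Ddr2 fell to 3.65 and 4.25 CPM in Tet1-KO TKO cells, against 7.87 and 8.55 CPM in TKO cells (-1.05, SE 0.22, adjusted p = 0.00551), the one call of those named here that held under every alternative. Bmp1, the C-propeptidase gene, rose by 1.05 (SE 0.22), a call lost without TKO replicate 1 (adjusted p = 0.0533), as was that of Mrc2 (0.75, SE 0.17, adjusted p = 0.105 without it). P4ha2 (1.02, SE 0.27) and Timp2 (1.22, SE 0.32) lost theirs without TKO replicate 1 or Tet1-KO TKO replicate 2, where Timp2 stood at 0.59. Fkbp10 (-0.66, SE 0.14), Mmp2 (-0.64, SE 0.17) and Pcolce (-0.43, SE 0.13) lost theirs without TKO replicate 2 (adjusted p = 0.074, 0.239 and 0.0584). Mmp2 was also lost without either Tet1-KO TKO library (adjusted p = 0.0743 and 0.0793), and Pcolce without TKO replicate 1 (adjusted p = 0.218) and Tet1-KO TKO replicate 2 (adjusted p = 0.231). Against wild-type cells 17 of the 47 genes were higher in Tet1-KO TKO cells and 12 lower (36.2% and 25.5%, against 26.3% and 24.4% of all genes), with 9 higher without Tet1-KO TKO replicate 2. Itga1 (4.23, SE 0.39), Timp3 (2.60, SE 0.23), Ddr1 (1.47, SE 0.11) and P4hb (0.60, SE 0.10) had the smallest p of the rises, and Mmp14 (-1.26, SE 0.10), Fkbp10 (-1.48, SE 0.14), Adamts14 (-1.26, SE 0.14) and Pcolce (-1.18, SE 0.13) the falls. Mia3 was at 0 in all 14 libraries, and whether this means no RNA or an ID that the mm9 tables did not count was not tested.

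Members too low to test were few in counts in every group. In experiment 1 these were Col4a3, Col4a6, Col8a1, Col10a1, Col19a1, Col24a1, Col25a1 and Col28a1, none above 19 counts in a library. Col3a1, Col4a4 and Col9a1 joined them in experiment 2, where the highest was Col3a1 with 11 and 25 counts in Tet1-KO TKO cells, against 7 and 5 in TKO and 2 and 0 in wild-type cells. Col9a1, the partner of Col9a2, had 0 and 2 counts in Tet1-KO TKO cells, 7 and 7 in TKO cells and 2 and 2 in wild-type cells. Col28a1 had 7 and 3 counts in TKO vehicle cells, against 1 and 0 in wild-type vehicle cells, a ratio of 10.1 with a 95% counting interval of 1.44 to 438. These intervals and floors describe counting error alone, as the reads carry no molecular identifiers.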

How the data were processed

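Poly(A) RNA was sequenced from 14 libraries. The deposited values are whole-number read counts per Ensembl gene; per the submitters' processing notes the authors used Bowtie 0.12.8, TopHat2 2.0.2 and HTSeq 0.5.3p9 with the mm9 build. The strand setting and annotation release are not given there, so overlapping genes are named as such. Symbols, chromosomes and exon lengths came from a GRCm38 annotation and promoters from RefSeq (GRCm38.p6), so no expression coordinates are printed.

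The 2 tables were fitted separately with edgeR 4.0.16 (limma 3.58.1, R 4.3.3), using TMM scaling, filterByExpr with a minimum count of 10 and a total of 15, and quasi-likelihood tests with Benjamini-Hochberg adjustment over all genes kept. Calls were made at adjusted p under 0.05. The code was tested on simulated counts. Alternatives were library size only, DESeq2 size factors, no filter, a filter of at least 1 CPM in 2 libraries, DESeq2 1.42.0, a replicate block and leaving out each library. An alternative that did not test a gene was not counted against its call. No 2 libraries agreed within sampling noise.

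Members and lists were chosen with earlier results of these data known. Values per library are given for members with a mean of at least 5 CPM in a group, for up to 4 called genes per direction and comparison with the smallest p, and for partner chains. Other members are given in less detail, and those named with values outside that rule were chosen after their values were seen.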

Additional observations from a re-analysis of the deposited data

Results flagged for a closer look

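Col18a1 was called in opposite directions in the same genotype contrast. Its log2 change in TKO over wild-type cells was -0.28 under vehicle and 0.37 without treatment. The difference between these experiments was not tested. Under the inhibitor the effect on Col18a1 in TKO cells minus that in wild-type cells was -0.25, and this difference was tested as an interaction in edgeR (adjusted p = 0.0338).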

How the results depend on the processing

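Each group held 2 libraries, which limits every call. Of 161 combinations of a named gene and a comparison, 144 were called and 104 kept their direction and side of the threshold in every alternative that tested them. In 169 single alternatives a call was lost, in 3 one was gained and in 3 the sign changed. Uncalled members were followed only if they reached a mean of 5 CPM in a group, so gains are not fully counted. With DESeq2's test, 1 collagen gene fell with the inhibitor in TKO cells, 2 rose with it in wild-type cells, and 6 fell with Tet1 loss. For genotype under vehicle that test lost Col12a1 and Col26a1 (DESeq2 adjusted p = 0.0943 and 0.0652). In untreated TKO against wild-type cells it lost Col12a1, Col14a1, Col15a1, Col23a1 and Col4a5 (DESeq2 adjusted p = 0.0612 to 0.168). In Tet1-KO TKO against wild-type cells it lost Col1a1, Col20a1 and Col8a2 (DESeq2 adjusted p = 0.0684, 0.0557 and 0.071). Of the handling genes DESeq2 called 7 higher and 3 lower in TKO cells and 1 lower in wild-type cells with the inhibitor. The single higher interaction of a handling gene became 0 with library size only, DESeq2 and the replicate block. Col18a1 with Tet1 loss (0.05) was -0.02 with library size only and -0.04 to 0.14 with 1 library left out, and with the inhibitor in wild-type cells (-0.06) it was -0.10 to 0.00; none of these was called. The cause of these differences was not tested.

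Leaving out 1 library at a time gave these ranges for higher and lower collagen genes: 19 to 21 and 3 to 4 for genotype under vehicle, 10 to 16 and 4 to 6 untreated, with 10 without wild-type replicate 1, 1 to 5 and 1 to 2 for the inhibitor in TKO cells, 2 to 5 and 0 to 1 in wild-type cells, 0 to 0 and 0 to 2 for the interaction, 2 to 3 and 2 to 10 for Tet1 loss, and 9 to 12 and 6 to 9 for Tet1-KO TKO against wild type. For handling genes the ranges were 18 to 21 and 11 to 12, 7 to 13 and 11 to 15, 5 to 12 and 4 to 6, 13 to 14 and 1 to 3, 0 to 1 and 4 to 6, 0 to 12 and 1 to 6, and 9 to 19 and 9 to 11, in the same order.

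The labels do not say that same-numbered replicates share a culture or day. Their deviations correlated by -0.0345 to 0.0384 in experiment 1 and by 0.111 to 0.236 in experiment 2, and with 2 pairs a comparison this does not settle whether they are paired. Among uncalled members that reached a mean of 5 CPM in a group, the replicate block gained the calls of Col13a1 with Tet1 loss (-0.48, edgeR adjusted p = 0.0368) and Col7a1 in Tet1-KO TKO over wild type (0.53, edgeR adjusted p = 0.0341). Gains of lower members were not followed by name. With the replicate block, collagen genes called higher and lower were 21 and 3 under vehicle, 17 and 6 untreated, 4 and 2 with the inhibitor in TKO cells, 5 and 0 in wild-type cells, 0 and 1 for the interaction, 3 and 12 for Tet1 loss, and 12 and 9 for Tet1-KO TKO against wild type.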
